A study of Mus musculus with 12 samples.

Results

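The 6 genes described here code for chains of the collagens that fibroblasts secrete, and the data are the stretches of their chromatin-associated RNA that were recovered with HP1γ. They were chosen by name: Col1a1, Col1a2, Col3a1, Col5a1, Col5a2 and Col6a3. All rows of both deposited region lists that overlap a fixed mm9 span around each gene are reported, which gave 13 regions of 12622, 10 of 10013 in untreated cells and 3 of 2609 after PMA. The rule uses names and positions and no measured value, but the genes were proposed with earlier results of these data known. The spans include margins around the genes, whose mm9 bounds were not checked, so a region is given to a gene only in the sense that it lies in its span.

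HP1γ, coded by Cbx3, belongs to the heterochromatin protein 1 family, whose chromodomain binds methylated histone H3, and it is also found along transcribed genes. RNA still attached to its gene can be recovered with such a chromatin protein. The 12 libraries come from mouse cells derived from embryonic fibroblasts, in which HP1γ was knocked out and then expressed again, so both conditions share the knock-out and the restored HP1γ. They form 4 groups of 3 biological replicates: chromatin input RNA and RNA co-precipitated with HP1γ (IP), from untreated cells and from cells given the phorbol ester PMA at 100 nM for 30 min. PMA activates protein kinase C and serves as the stress. The labels do not say whether the cells are 1 clone or which promoter drives the restored HP1γ. The number of mock IP libraries, or of IPs from cells lacking HP1γ, was 0, so HP1γ-bound RNA and RNA that comes along unspecifically cannot be told apart. Each list gives 1 value per region and none per library. Read depth is unknown, no region has a replicate error, and no change at a region could be tested. Fibroblast markers could not be checked, as the lists hold no expression values.

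Fibrillar collagens give connective tissue its tensile strength. The chains coded by Col1a1 and Col1a2 make type I collagen, the main fibril former of skin, bone and tendon, and Col3a1 codes for type III collagen, which joins type I fibrils in elastic tissues. Col5a1 and Col5a2 code for chains of type V collagen, a minor fibril component that starts fibril assembly and limits fibril width. Col6a3 codes for the largest of the common chains of type VI collagen, which forms beaded microfilaments around cells instead of banded fibrils.

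Regions were found in 2 of the 6 genes. In untreated cells Col6a3 had 8 and Col5a1 had 2, and after PMA Col6a3 had 3. Col1a1, Col1a2, Col3a1 and Col5a2 had no region in either list, and Col5a1 had none after PMA. The 8 untreated Col6a3 regions stand against a background in which 0.508% of windows as long as its span held at least 8. The windows were tiled along each chromosome with regions, from its first to its last region of either list. At least 3 PMA regions were held by 0.704% of such windows. Both shares are for regions as listed. With regions at most 1 kb apart counted as 1, Col6a3 had 4 untreated and 2 PMA regions, and window shares were not computed for these counts. For the Col5a1 span, 11.9% of windows of that length held at least 2 untreated regions. These windows include stretches without genes or transcripts, so they describe the lists and are no comparison with other transcribed genes.

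The Col6a3 span lies on chromosome 1 (92663000 to 92741000, 78 kb). RefSeq's promoter table for GRCm38.p6 places the gene on the minus strand, so the start of the gene is toward the upper end of the span. A region is a stretch made by joining peaks that were called in single replicates, its member peaks, and its fold is the authors' ratio of IP over input, averaged over these. Of the 8 untreated regions, 6 lay close together within 12.3 kb (92713989 to 92726247), with 0.14 to 1.36 kb between neighbours, and covered 80.7% of that stretch. Neighbours at most 2 kb apart were grouped, a distance chosen after the positions were seen. The other 2 regions lay alone toward the ends of the span.

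**Figure D1:**
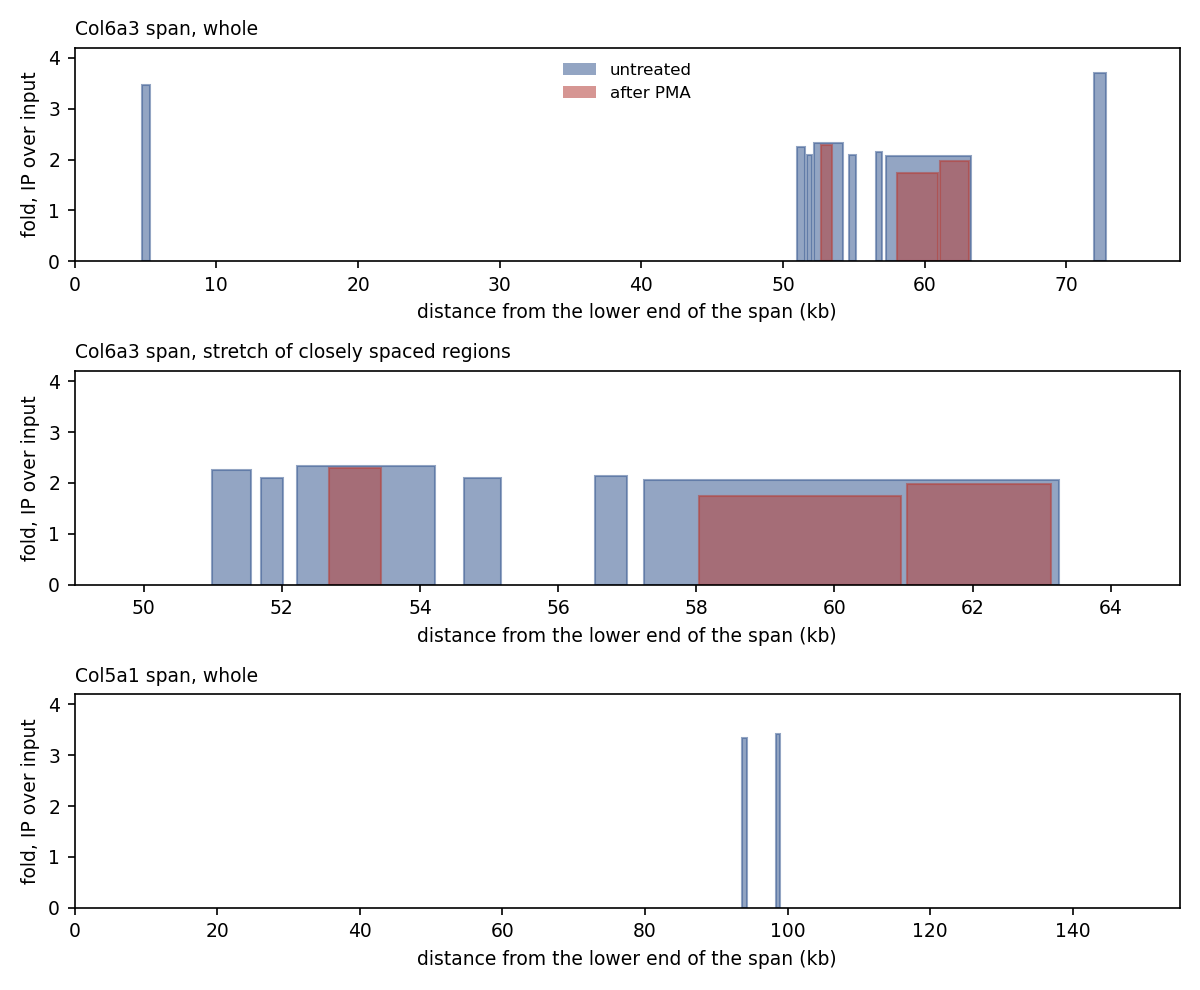
Regions in the Col6a3 span (upper panel), its closely spaced stretch (middle panel) and the Col5a1 span (lower panel), by distance from the lower end of the span in kb. The height of a box is the fold of IP over input in untreated (blue) or PMA-treated cells (red, drawn over blue). The 3 PMA boxes stand inside 2 untreated boxes of Col6a3, and Col5a1 has untreated boxes only.

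The grouped regions had low folds, between 2.06 and 2.32, where the median of the whole untreated list was 3.65. Only 1.10% of untreated regions had a lower fold than the lowest of them, and 3.84% a lower one than the highest. Their mean −log10 q values were 4.23 to 8.70, above the list's median of 3.59. Of the 385 untreated regions with a fold no higher than 2.32, the median −log10 q was 2.32, and 77 reached at least 4.23, or 0.769% of the whole list. These limits were set by the Col6a3 regions themselves, so the count is a description. As background, at a given ratio the q value of a peak caller becomes smaller with more reads, but the reads behind these regions are not in the lists.

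The regions of the group differed mostly in width. Going up the chromosome, the first was 570 bp wide (92713989 to 92714558), with a fold of 2.25 and a −log10 q of 8.53. The next had 316 bp (92714699 to 92715014), a fold of 2.10 and a −log10 q of 4.35. The third was 1996 bp wide (92715216 to 92717211) and had the highest fold of the group, 2.32, and its highest −log10 q, 8.70. These 3 lay farthest from the start side of the gene within the group.

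Nearer to that side followed a 543 bp region (92717635 to 92718177), with a fold of 2.09 and a −log10 q of 4.23. The region after it had 465 bp (92719540 to 92720004), a fold of 2.14 and a −log10 q of 5.43. The last was 6007 bp wide (92720241 to 92726247), with a fold of 2.06 and a −log10 q of 6.13. This region ranked 2 by width among all 10013 untreated regions, whose median width was 528 bp, and its 15 member peaks were matched by 1 other region and exceeded by none. It ended 14.8 kb below the upper end of the span.

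The lone Col6a3 regions had higher folds. The lower one (92667775 to 92668327, 553 bp), which began 4.78 kb above the lower end of the span, had a fold of 3.47 and the highest −log10 q of the 10 collagen regions, 9.92, above that of 95.9% of the list. The upper one (92734924 to 92735821, 898 bp), which began 6.08 kb below the upper end of the span, had the highest fold of the 10, 3.71, and a −log10 q of 3.18. Both folds were near the list's median, with 42.2% and 52.4% of regions below them. No mm9 annotation was used, so no exon, intron or UTR is assigned to a region.

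**Figure D2:**
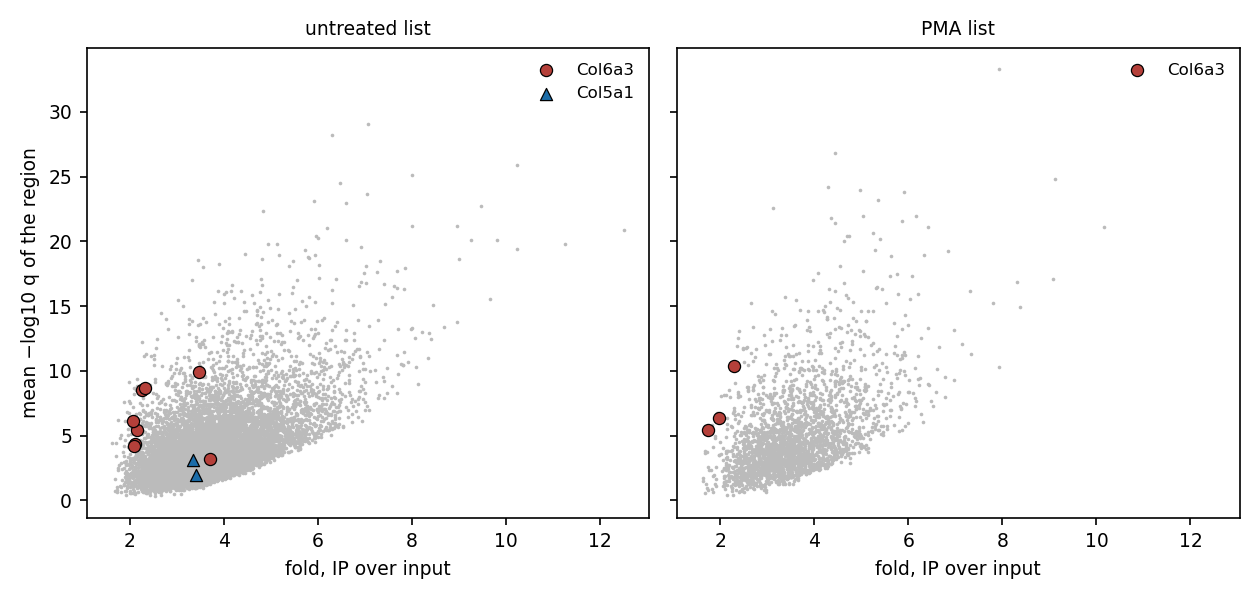
Fold of IP over input (x axis) against mean −log10 q (y axis) for every region of the untreated list (left) and the PMA list (right), in grey, with Col6a3 (red circles) and Col5a1 (blue triangles) marked. At the low-fold edge of both clouds sit 6 of 8 untreated and all 3 PMA regions of Col6a3, with folds up to 2.32.

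All 3 untreated replicates contributed a member peak to each of the 10 collagen regions, as they did to 91.9% of the whole list. In 8 of the 10 there was exactly 1 per replicate, which 69.9% of the list showed. The exceptions were the wide Col6a3 regions. The 6007 bp region was made of 1 peak of replicate 1, 5 of replicate 2 and 9 of replicate 3, and the 1996 bp region of 1, 2 and 3 peaks. More peaks of replicate 3 than of replicate 1 were found in 5.98% of untreated regions. In the whole list replicate 1 gave the most member peaks, 11868, and replicate 3 the fewest, 10480. The widths and positions of single member peaks were not used here, so how the peaks of each replicate fill the 6007 bp is unknown.

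**Figure D3:**
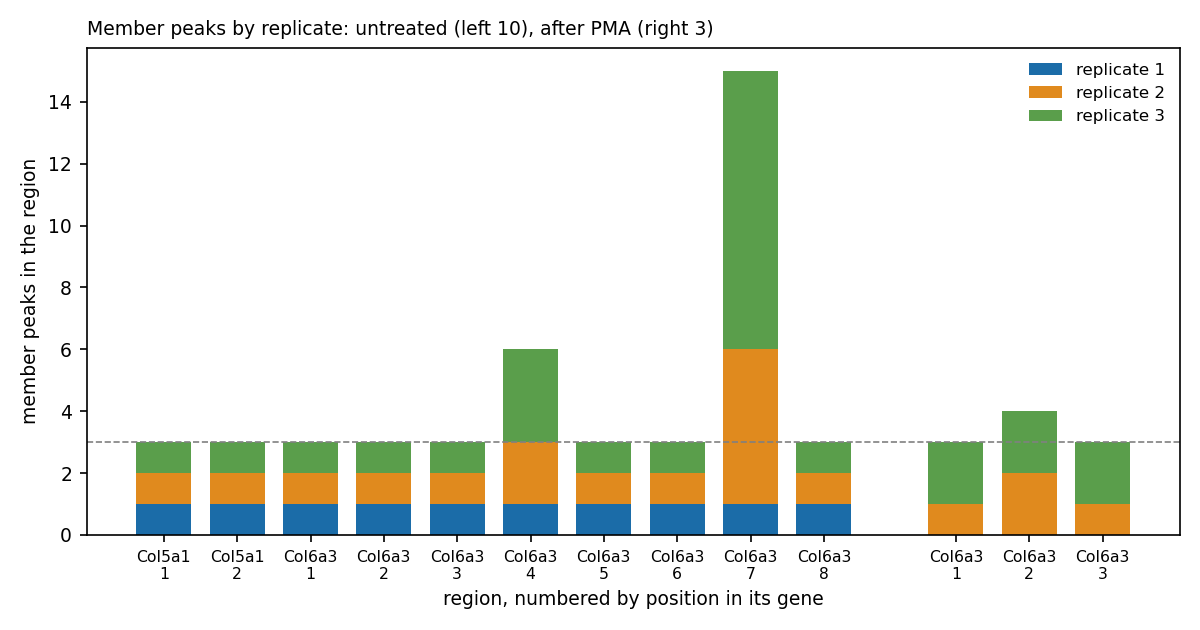
Number of member peaks (y axis) in each untreated (left 10 bars) and PMA region (right 3 bars), stacked by replicate, with regions numbered by position within their gene. The dashed line marks 3, the fewest in any row of either list. Untreated Col6a3 regions 4 and 7 reach 6 and 15 peaks, and no PMA bar holds a peak of replicate 1.

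Peak numbers add a view of peaks that were called but not listed. Member peaks carry the number given to them in their replicate, and these numbers never stepped back along a chromosome in the 5 replicates named in the lists. A skipped number between neighbouring regions is therefore a peak that lies between them and reached no region. Within the 12.3 kb group of Col6a3 the number of skipped peaks was 0 in replicates 1, 2 and 3. In the 45.7 kb between the group and the lower lone region, replicate 1 had 16 unlisted peaks, replicate 2 had 1 and replicate 3 had 0. In the 8.68 kb above the group the numbers were 2, 1 and 1. The replicates thus differed below the group, where replicate 1, which had the most called peaks of the untreated replicates (at least 87348, against 40773 and 33450), was nearly alone. The Col6a3 span held at least 26, 15 and 19 called peaks of untreated replicates 1, 2 and 3, of which 8, 13 and 18 were listed.

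After PMA, the 3 Col6a3 regions lay inside the same 12.3 kb stretch and had low folds too. The first (92715681 to 92716436, 756 bp) had a fold of 2.28 and a −log10 q of 10.4, above 92.6% of the PMA list. The second (92721033 to 92723967) was 2935 bp wide, rank 5 of the list by width, with a fold of 1.74 and a −log10 q of 5.40. The third (92724051 to 92726139, 2089 bp) had a fold of 1.98 and a −log10 q of 6.39. The median fold of the PMA list was 3.50, and 4.37%, 0.422% and 1.15% of its regions had a lower fold than these. The regions were made of 3, 4 and 3 member peaks from replicates 2 and 3, since peaks of replicate 1 do not occur in the PMA list.

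Each of the 3 lay in full within an untreated region, while 54.8% of all PMA regions overlapped one by at least 1 bp. The share of 100% has an exact 95% interval of 29.2 to 100, which covers counting error only, and the 3 regions belong to 1 gene. The first lay in the 1996 bp region, with folds of 2.28 after PMA and 2.32 untreated. The other two shared the 6007 bp region, with folds of 1.74 and 1.98 against 2.06. The ratios of PMA to untreated fold were thus 0.983, 0.845 and 0.958. They compare means over unlike stretches and unlike sets of member peaks. The 1996 bp region averaged 6 peaks against 3, and the 6007 bp region 15 peaks against 4 and 3. The PMA peaks came from replicates 2 and 3 only. Over the 1431 PMA regions with an untreated partner, the median ratio to the strongest partner was 0.973 and 56.5% were below 1, so values under 1 were the commoner case in the lists as a whole. Without a value per library the differences could not be tested.

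In the other direction, 2 of the 10 untreated collagen regions overlapped a PMA region (20%, exact 95% interval 2.52 to 55.6), near the 15.5% of the untreated list. These 2 were the widest of the 10, and the only ones with more than 1 member peak of a replicate. Every PMA region has at least 3 member peaks from replicates 2 and 3 only, so 1 of these replicates gave at least 2. The overlap with the widest regions is therefore not independent of how the PMA list was built. The interval covers counting error only and treats the 10 regions as independent, although 8 of them lie in Col6a3. The 4 narrower regions of the Col6a3 group, both its lone regions and both Col5a1 regions had no PMA partner. Untreated regions outnumbered PMA regions 2.67 times in Col6a3 and 3.84 times in the whole lists, and covered 11348 bp against 5780 bp of Col6a3.

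The lists were not built alike, and the Col6a3 counts depend on that. A region with 1 member peak in each of 3 replicates falls short of 3 when any replicate is left out, so 8 of the 10 untreated collagen regions could not have been listed from 2 replicates by the same minimum. With the member peaks of untreated replicate 1, 2 or 3 left out and at least 3 still required, only the 1996 and 6007 bp regions of Col6a3 could pass, and they did each time. In the whole untreated list 6.31% of regions passed all 3 of these reductions. This reduction is set by the counts of member peaks and does not show how many regions would have been joined from 2 replicates. The 3 PMA regions lay in 2 untreated ones, so the counts are not of like regions either. With the untreated list cut to the length of the PMA list by −log10 q, Col6a3 had 5 untreated regions against 3, and Col5a1 had 0. An effect of PMA on the number of regions, the missing Col5a1 rows included, cannot be told apart from the absence of replicate 1 from the PMA list. Unlisted peaks were also called after PMA: between the first and second PMA regions of Col6a3, 4.60 kb apart, replicate 2 had 2 and replicate 3 had 5. The span held at least 6 called peaks of PMA replicate 2 and 11 of replicate 3.

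The Col5a1 span (chromosome 2, 27741000 to 27896000, 155 kb, plus strand in RefSeq's table) held 2 untreated regions with folds near the middle of the list. The first (27834659 to 27835239, 581 bp) had a fold of 3.34 and a −log10 q of 3.08. The second (27839304 to 27839910, 607 bp) lay 4.06 kb further on, with a fold of 3.41 and a −log10 q of 1.97, which was higher than in only 12.7% of the list. Both folds were below the list's median, above 36.5% and 39.7% of regions, and higher than those of the Col6a3 group. They began 93.7 and 98.3 kb from the lower end of the span. Between them replicate 1 had 1 unlisted peak and replicates 2 and 3 had 0. The partner chain of type V collagen, Col5a2, gave no region.

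The 4 genes without a region were read against the same kind of background. Windows as long as the Col1a1 span (chromosome 11, 94797000 to 94815000, 18 kb) held no untreated region in 95.5% and no PMA region in 98.5% of cases. For Col1a2 (chromosome 6, 4455000 to 4492000, 37 kb) these shares were 92.4% and 97.3%. For Col3a1 (chromosome 1, 45368000 to 45407000, 39 kb) they were 92.2% and 97.1%. For Col5a2 (chromosome 1, 45431000 to 45561000, 130 kb) they were 81.9% and 92.3%, and for the length of Col5a1 91.1% of windows held no PMA region. An empty span is thus the usual case in these lists. The lists show enrichment over input, so an RNA that is abundant in input and IP alike gives no region, and the levels of the collagen RNAs were not measured here.

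The surroundings of the empty genes were also empty, to different extents. The nearest untreated regions to Col1a1 lay 646 kb below and 125 kb above its span, and those of Col1a2 1164 kb below and 538 kb above. Col3a1 and Col5a2, whose spans are 24 kb apart, shared a stretch of 6.97 Mb without any untreated region (44071310 to 51040397). It ranked 33 by length among 9993 such stretches, whose median was 13.9 kb. The untreated stretches around Col1a1 and Col1a2 ranked 840 and 349. A given span falls more often in a long stretch, so the median is not what an empty gene should be set against. In the PMA list the stretch around Col3a1 and Col5a2 was 7.72 Mb long and ranked 53 of 2589, whose median was 96.2 kb. No region of either list lay within 10 kb outside any of the 6 spans.

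Peak numbers set an upper limit on what was called in the empty genes. Over the whole 6.97 Mb around Col3a1 and Col5a2, untreated replicates 1, 2 and 3 had 27, 9 and 15 called peaks, so neither gene can hold more. Col1a1 can hold at most 42, 8 and 5 and Col1a2 at most 33, 11 and 9, counted over the 789 kb and 1739 kb between their nearest untreated regions. After PMA the limits were wider, at 29 and 107 peaks of replicates 2 and 3 for Col3a1 and Col5a2. They were 32 and 64 for Col1a1, 43 and 79 for Col1a2 and 92 and 142 for Col5a1. These PMA limits were counted over longer stretches: 2140 kb for Col1a1, 2393 kb for Col1a2, 2734 kb for Col5a1 and 7.72 Mb for Col3a1 and Col5a2. Length was not the only difference. Per Mb of stretch, the limits of replicates 2 and 3 for Col3a1 and Col5a2 were 3.75 and 13.9 after PMA, against 1.29 and 2.15 untreated. Over the genome, replicates 2 and 3 had at least 49502 and 92243 called peaks after PMA, against 40773 and 33450 untreated. A limit over a whole stretch places no peak in a gene, so these limits do not show more peaks at these genes after PMA. Col6a3 held several called peaks of each of the 5 replicates for certain, and Col5a1 at least 3, 2 and 2 of untreated replicates 1, 2 and 3. This follows from their listed regions. The least number is 0 wherever no region is listed, so it adds no further contrast with the empty genes. Whether single replicates had peaks in the empty genes cannot be read from the lists.

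**Figure D4:**
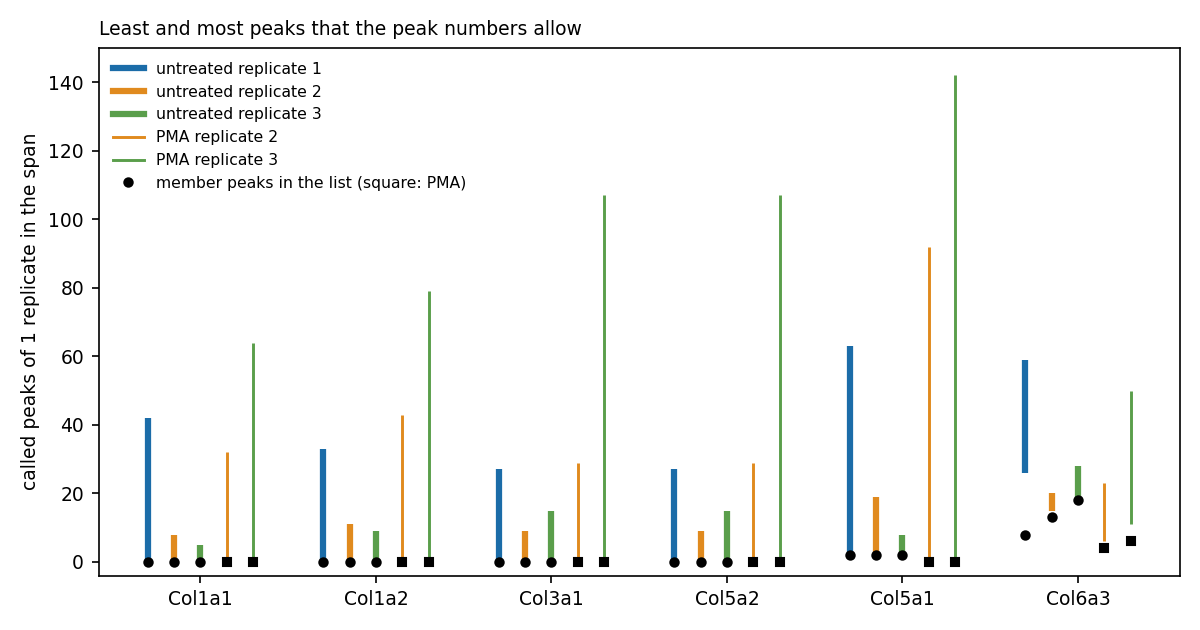
Least and most called peaks of 1 replicate (y axis, ends of each line) that the peak numbers allow in each span, for 3 untreated (thick lines) and 2 PMA replicates (thin lines), with member peaks in the lists as black marks. The lines start at 0 for Col1a1, Col1a2, Col3a1 and Col5a2 and above 0 in all 5 replicates for Col6a3. A line starts at 0 wherever the list holds no region in the span.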

How the data were processed

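RNA of chromatin input and of HP1γ immunoprecipitates was sequenced in 12 libraries, per the labels' protocols. Tools listed in the submitters' processing notes, without order or role, are MACS2 2.1.0, STAR 2.5.0a, deepTools, cutadapt 1.11 and Subread's featureCounts 1.4.6-p3; the build is mm9. How peaks were called and joined is not given in the sources at hand. The deposited files are 2 region lists in narrowPeak layout without strand. The authors' deposited fold (a ratio of IP over input), −log10 p, −log10 q and score are read as means over the member peaks named in each row. The mean summit offset, another deposited column, was not used.

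The spans are those given for the 6 genes, and a row counted when it overlapped a span by at least 1 bp. The members and gene list were chosen with earlier results of these data known. Named regions are all of those in the spans, which goes beyond the planned rule (every PMA region and, per gene, the strongest, widest, first and last untreated ones). Planned counts for other matrix genes, and a search for genes of similar pattern, were not run because no mm9 annotation was used. RefSeq's promoter table (GRCm38.p6) held 4 of the 6 genes and served for orientation only, since the build differs. Intervals are exact Clopper-Pearson 95% intervals. Background windows are adjacent, non-overlapping and as long as each span. Starts are 1-based. Work was done in Python 3.11.15 with pandas 2.3.3, numpy 2.4.6, scipy 1.17.1 and matplotlib 3.10.9. Overlap counts and limits from peak numbers were tested on simulated lists.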

Additional observations from a re-analysis of the deposited data

How the results depend on the processing

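The 10 untreated and 3 PMA regions were the same in number when regions had to be centred or contained in the span, when spans were widened by 5 kb or cut by 1 kb, and at a mean q of 0.05 or less on the −log10 scale. At 0.001, 9 untreated and 3 PMA regions were counted. With a fold of at least 3, 4 untreated and 0 PMA regions were counted. Counting regions at most 1 kb apart as 1 gave 6 and 2, and an untreated list as long as the PMA list by −log10 q held 5, all in Col6a3. Leaving out untreated replicate 1, 2 or 3 gave 2 regions each time, and 100% of them had a PMA partner. This was fixed by their member peak counts, and bounds and folds remained those joined over all replicates, so no width or fold was measured without a replicate. Leaving out 1 PMA replicate gave 0 to 3 regions: 0 without replicate 2 or 3, by construction since few rows have 3 member peaks from 1 replicate (72 and 121 in the whole list), and 3 without replicate 1, which is not in the list. No paired analysis was possible because the lists hold no values per library. Of 89 alternative values for 11 results, 60 stayed within the limits used: counts within 1.5 times, shares within their exact interval, medians within their order-statistic interval or, for the 3 PMA regions, equal. Such values include the 2 PMA regions after joining and a share of 30% of untreated regions with a PMA region within 1 kb, against 20% by overlap. The alternative values are not independent. Counts over the 6 spans include those of single genes, and PMA values without replicate 1 could not change. The exact intervals also treat regions of 1 gene as independent. The total of 60 is therefore no measure of how robust the results are.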
